A study of Mus musculus with 14 samples.

Results

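The comparison described here sets hippocampus of a condition that the deposited table calls DKO against hippocampus depleted of TRF2. If DKO is a double knockout that includes TRF2, the comparison asks what a further change adds to the loss of TRF2. No sample label states that make-up. TRF2, encoded by Terf2, is a shelterin protein: it holds the end of a chromosome in a protected loop and keeps the ATM kinase and end-joining repair away from it. Without it, chromosome ends are read as DNA breaks and can fuse, and in dividing cells p53 then stops the cycle or kills the cell. Most hippocampal neurons no longer divide, while the dentate gyrus keeps making granule neurons in the adult.

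The members are the genes of the hippocampus table that the authors tested between the 2 conditions and that reached at least 1 FPKM (fragments per kilobase of transcript, scaled to the mapped fragments) in either. Each gene was represented by its tested coding-sequence row with the highest mean of the 2 values, which gave 9818 of the 20492 genes in the table, or 47.9%. The minimum of 1 FPKM removed no tested row: the larger of the 2 values was 1.41 FPKM in the lowest tested row and reached 2.62 FPKM among rows that were not tested.

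In the TRF2-depleted group the labels place 3 hippocampus samples of C57BL/6 mice aged 3 months, in which, per the series' design text, Cre was tied to Dcx, which newborn neurons express as they migrate. A further TRF2-depleted sample, named hippocampus in its title and cortex in its tissue label, was placed in no group, and it is not known whether the TRF2-depleted values used throughout include it. The control group comprises 3 hippocampus samples of the same strain and age, which the design text calls WT. DKO usually abbreviates double knockout, but no sample label describes this condition, and the sources used here give neither its number of samples nor its second altered gene, mouse age or Cre line. The table pools the samples of a condition into 1 FPKM per row, which leaves no measure of error between samples for any level, and the read depth is unknown. Significance rests on the test deposited by the authors: a call required a q no higher than 0.05 there, and "rose" and "fell" are used of called genes alone. FPKM summed over all rows to 168036 in control, 168887 in TRF2-depleted and 171147 in DKO hippocampus. Defining genes of hippocampal cells were present in all 3 conditions, among them Neurod6 of pyramidal neurons (50.8, 49.5 and 50.2 FPKM in control, TRF2-depleted and DKO) and Prox1 of granule neurons (4.88, 1.38 and 2.64 FPKM), each summed over its rows.

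Terf2 (chromosome 8 from 107069400 to 107096545, mm10) was low in both conditions. Summed over its 3 rows it had 2.01 FPKM in control, 0.883 in TRF2-depleted and 0.753 in DKO hippocampus, so that TRF2-depleted stood at 43.9% and DKO at 37.4% of control. The authors tested none of the 3 rows, so the 2 conditions were not compared for this gene. The tissue holds many cell types, and a bulk level cannot separate fewer cells with the gene from less RNA per cell, here or in any result below.

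Trp53, which encodes p53, was the 1 gene among p53, its relatives and its regulators with a deposited p under 0.05. Its main row had 4.25 FPKM in control, 4.35 in TRF2-depleted and 2.26 in DKO hippocampus, a log2 ratio of DKO over TRF2-depleted of -0.95 with p = 0.00345 and q = 0.429 in the authors' deposited table, so it was not called. Summed over its 2 rows, Trp53 stood at 91.6% of control in TRF2-depleted and at 44.9% in DKO hippocampus. Other genes of the response to an open chromosome end stood nearer to their control level in DKO. The damage kinase gene Atm had 1.68, 2.03 and 1.76 FPKM in control, TRF2-depleted and DKO, the ligase gene Lig4 had 2.29, 2.26 and 2.17 FPKM, and the p53-binding protein gene Trp53bp1, which was not tested, had 1.60, 0.849 and 1.37 FPKM summed over its rows. Usp7, a deubiquitinase that acts on p53, had the next smallest p after Trp53 in its list, with 15.3, 15.4 and 13.9 FPKM. These levels do not identify the second altered gene of DKO.

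Between DKO and TRF2-depleted hippocampus 15 of 9818 genes were called (0.153%), of which 6 rose in DKO (0.0611%) and 9 fell (0.0917%). The 9 that fell were led by genes of the choroid plexus, the epithelium that secretes cerebrospinal fluid, and the 6 that rose included the transcription factor gene Cebpb and the cell polarity gene Scrib. All 15 share p = 5e-05 and q = 0.0301 in the authors' deposited table, the lowest values it holds. In all 15, TRF2-depleted was the extreme of the 3 conditions, highest in the 9 that fell and lowest in the 6 that rose. The same pooled TRF2-depleted samples enter every call. At a deposited p under 0.05 there were 499 genes (5.08%), 300 higher and 199 lower in DKO. The same rule called 18 genes (0.183%) in TRF2-depleted against control and 20 genes (0.204%) in DKO against control. The 3 comparisons share samples, so values are set side by side below and no overlap is tested.

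**Figure D1:**
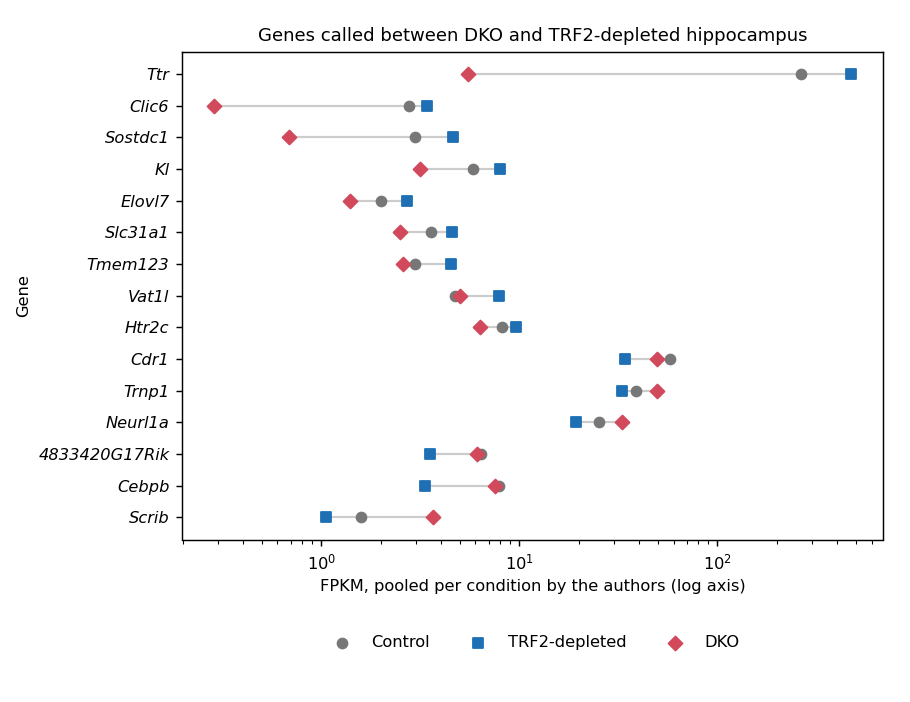
Level in FPKM (log axis) of the 15 genes called between DKO and TRF2-depleted hippocampus, with control for reference; each symbol is 1 pooled value per condition and the grey line spans the 3 values. Ttr spans the widest range, from 5.52 FPKM in DKO to 472 FPKM in TRF2-depleted hippocampus.

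Transthyretin (Ttr), the thyroid hormone and retinol carrier made by choroid plexus epithelium, had 264 FPKM in control, 472 FPKM in TRF2-depleted and 5.52 FPKM in DKO hippocampus. It was 85.4-fold lower in DKO than in TRF2-depleted hippocampus (log2 ratio -6.42). The chloride channel gene Clic6 (chromosome 16 from 92498147 to 92541241) had 2.77 FPKM in control, 3.41 in TRF2-depleted and 0.287 in DKO hippocampus, 11.9-fold lower in DKO than in TRF2-depleted. Sostdc1, a secreted antagonist of BMP and Wnt signalling (chromosome 12 from 36314169 to 36318452), had 2.97, 4.60 and 0.685 FPKM in the same order, 6.71-fold lower. Klotho (Kl), a co-receptor for FGF23 that choroid plexus and some neurons make (chromosome 5 from 150952607 to 150993817), had 5.83, 7.98 and 3.16 FPKM, 2.52-fold lower. In all 4 genes DKO was the lowest and TRF2-depleted the highest of the 3 conditions. These 4 were also lower in DKO than in control at q = 0.0301, and their q for TRF2-depleted against control was between 0.548 and 0.886, in the authors' deposited table.

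These 4 belong to a list of 24 choroid plexus gene symbols, of which 23 are in the table and 15 were tested. Of the 15, 4 fell, 0 rose and 11 did not pass, where 0.153% of all genes were called. At a deposited p under 0.05 there were 10 of 15, against 5.08% of all genes. The median log2 ratio was -2.75 against 0.01 over all genes. Members such as Clic6 and Sostdc1 were under 1 FPKM in DKO and passed the minimum through TRF2-depleted alone. The list was also chosen with earlier results of these data known, so these shares are no independent evidence of a fall. All 23 were lower in DKO than in TRF2-depleted hippocampus when rows were summed, the 8 untested ones included, and Steap1 is listed at 0 in DKO. Folr1, a folate receptor that carries folate into cerebrospinal fluid, had 1.77, 3.58 and 0.431 FPKM in control, TRF2-depleted and DKO (the authors' deposited table gives q = 0.169 for DKO against TRF2-depleted). The augurin gene 1500015O10Rik had 5.39, 10.8 and 0.742 FPKM and the potassium channel gene Kcnj13 had 2.68, 4.60 and 0.344 FPKM, for which the authors' deposited table gives q = 0.305 and q = 0.886. The lowest ratio of a tested member was that of Tmem72, with 1.38, 1.94 and 0.00781 FPKM (log2 ratio -7.95), also at q = 0.886 in the authors' deposited table. Aqp1, the water channel of the epithelium's apical face, was not tested and had 1.11, 1.58 and 0.0683 FPKM. Otx2, a transcription factor that choroid plexus needs to form, was not tested either and had 0.636, 1.21 and 0.339 FPKM summed over its rows.

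**Figure D2:**
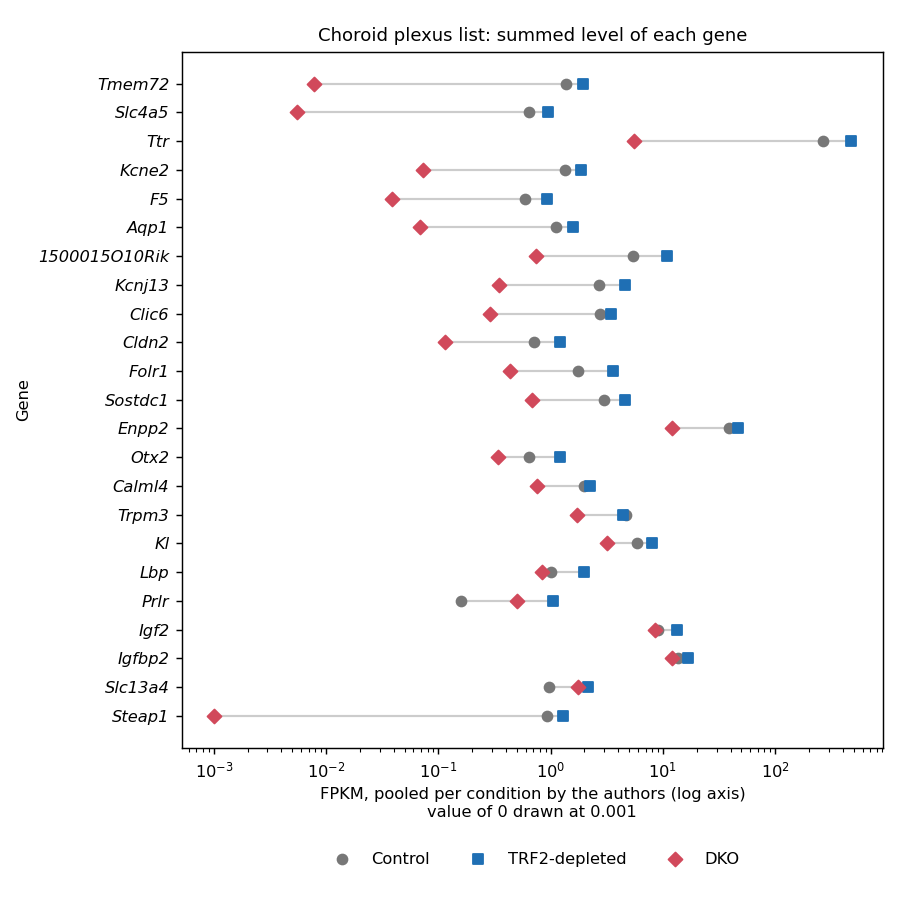
Level in FPKM (log axis) of the 23 choroid plexus genes in the table, summed over each gene's rows, in control, TRF2-depleted and DKO hippocampus; Steap1, listed at 0 in DKO, is drawn at 0.001. All 23 DKO values lie below the TRF2-depleted values, and Igf2, Igfbp2 and Slc13a4 differ least.

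The sum over the list was 362 FPKM in control, 606 FPKM in TRF2-depleted and 49.7 FPKM in DKO hippocampus, most of it Ttr. Without Ttr the sums were 98.7, 134 and 44.2 FPKM. The 3 members that differed least are also in the list for meninges and fibroblasts. Igf2 and Igfbp2, a growth factor and a binding protein made by meninges as well, had log2 ratios of -0.85 and -0.49, and the meningeal transporter gene Slc13a4 had -0.28. Enpp2, whose product autotaxin is also made by oligodendrocytes, had -2.28. Over the 11 tested members in no other list the median was -3.57, and over the 4 that another list holds it was -0.67. How much choroid plexus each pooled condition contained was not measured apart from these genes, and its part in the result was not tested.

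Lists for the tissues next to the choroid plexus had no called member, where 0.153% of all genes were called. Their medians differed less and not all in 1 direction, but single members ranged widely. Ependymal genes, of the ciliated cells that line the ventricles, summed to 16.7 FPKM in control, 25.6 in TRF2-depleted and 26.2 in DKO hippocampus. Their median log2 ratio was 0.06, with tested members from -2.53 to 0.98, and 0 of 10 were called. That median was 0.28 with rows summed and -0.59 with a minimum of 5 FPKM, which left 1 member. At a deposited p under 0.05 there was 1 of 10, against 5.08% of all genes. It was the cilium gene Rsph1, with 1.09, 2.72 and 1.75 FPKM in control, TRF2-depleted and DKO (p = 0.0499 in the authors' deposited table). Mia had 2.11, 1.19 and 2.34 FPKM. So Rsph1 was lower and Mia higher in DKO than in TRF2-depleted hippocampus.

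Meningeal and fibroblast genes summed to 243 FPKM in control, 373 in TRF2-depleted and 376 in DKO hippocampus. This sum rests on Ptgds, a prostaglandin D synthase with 165, 265 and 283 FPKM in control, TRF2-depleted and DKO. Without Ptgds the list summed to 78.1, 108 and 92.6 FPKM, a ratio of DKO to TRF2-depleted of 0.854. Of its 18 tested members 12 were lower in DKO, against 47.7% of all genes (median log2 ratio -0.12, members from -1.61 to 0.29). Of the 18, 0 were called, against 0.153% of all genes, and 2 had a deposited p under 0.05, against 5.08%. These 2 are Igf2 and Igfbp2, which the choroid plexus list also holds, and both were lower. Genes of the endothelium summed to 98.5, 112 and 102 FPKM in control, TRF2-depleted and DKO (median -0.18). Of 13 tested, 0 were called and 1 had a p under 0.05, against the same shares of all genes. The endothelial transporter gene Slco1c1 had 10.1, 10.9 and 7.92 FPKM in control, TRF2-depleted and DKO, and the tight junction gene Cldn5 had 9.21, 11.4 and 9.40 FPKM, with the highest level in TRF2-depleted hippocampus in both.

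The other 5 genes that fell differed by less than 2-fold. Elovl7, which lengthens fatty acids, had 2.01, 2.70 and 1.39 FPKM in control, TRF2-depleted and DKO hippocampus. Slc31a1, the high-affinity copper importer, had 3.56, 4.55 and 2.49 FPKM. Htr2c, a serotonin receptor gene of neurons that choroid plexus expresses strongly, had 8.20, 9.61 and 6.33 FPKM. In these 3 genes control lay between the other conditions, as it did in the 4 choroid plexus genes above. No difference of the 3 from control was called.

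Control lay between the other conditions in Tmem123 too, a membrane protein gene with 2.96, 4.49 and 2.60 FPKM in control, TRF2-depleted and DKO. Neither difference of Tmem123 from control was called. In Vat1l, by contrast, control was the lowest of the 3. It had 4.73, 7.89 and 5.03 FPKM, and had risen in TRF2-depleted against control (q = 0.0301) while its q for DKO against control was 0.940 in the authors' deposited table. The summed level of the choroid plexus list in DKO was 0.0820 of that in TRF2-depleted hippocampus, and 0.329 of it without Ttr. The part of choroid plexus RNA in these 5 falls was not tested.

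The 6 genes that rose are set out in 2 groups by their control level. Scrib, which encodes a scaffold of cell polarity and synapses (chromosome 15 from 76047162 to 76069730), had the largest rise and had 1.59 FPKM in control, 1.06 in TRF2-depleted and 3.65 in DKO hippocampus, 3.46-fold higher in DKO than in TRF2-depleted. Neurl1a, an E3 ubiquitin ligase gene of neurons, had 25.1, 19.2 and 33.1 FPKM, and Trnp1, a nuclear protein gene that controls division of neural progenitors, had 38.8, 32.9 and 49.5 FPKM. In these 3 DKO was above control and TRF2-depleted below it, though no difference from control was called. For Scrib, Neurl1a and Trnp1 the authors' deposited table gives q = 0.886, 0.361 and 0.572 for DKO against control. For TRF2-depleted against control it gives 0.894, 0.775 and 0.886. Neurl1a has 2 rows, and the log2 ratio of 0.79 in its called row became 0.32 when both were summed. The other 5 genes that rose have 1 row each.

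In the remaining 3, DKO was close to control and TRF2-depleted was low. Cebpb, a transcription factor of inflammatory and metabolic genes (chromosome 2 from 167688915 to 167690432), had 7.86 FPKM in control, 3.34 in TRF2-depleted and 7.53 in DKO hippocampus, 2.25-fold higher in DKO than in TRF2-depleted. Its q was 0.0919 for TRF2-depleted against control and 0.978 for DKO against control in the authors' deposited table. The uncharacterised gene 4833420G17Rik had 6.40, 3.55 and 6.12 FPKM. Cdr1 (chromosome X from 61183246 to 61185558) had 57.4, 34.0 and 49.5 FPKM, a log2 ratio of 0.54 that is the smallest among the 15 called genes. The Cdr1 locus is known for an abundant circular RNA of neurons on the opposite strand, and the sources used here do not say how strand was handled, so reads of the 2 transcripts cannot be told apart. Both 4833420G17Rik and Cdr1 had fallen in TRF2-depleted against control at q = 0.0301 in the authors' deposited table.

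A further 2 rows passed without representing their gene. A row of Ube2m, an enzyme of NEDD8 conjugation, had 7.59 FPKM in TRF2-depleted and 29.3 FPKM in DKO hippocampus, while its main row had 27.7 and 12.1 FPKM and the sum of its 3 rows a log2 ratio of 0.08. A row of Cdc27, a subunit of the anaphase-promoting complex, had 0.868 and 5.15 FPKM, against 7.84 and 2.81 FPKM in the main row and a summed log2 ratio of 0.01 over 4 rows. In both genes the rows moved in opposite directions and the summed level hardly differed. The genes next below the threshold were Ndn, which encodes the neuronal growth suppressor necdin (83.4 and 60.2 FPKM in TRF2-depleted and DKO, where the authors' deposited table gives q = 0.0552), and Fam163b, described below. Ube2m, Cdc27 and Ndn were named after their values were seen.

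**Figure D3:**
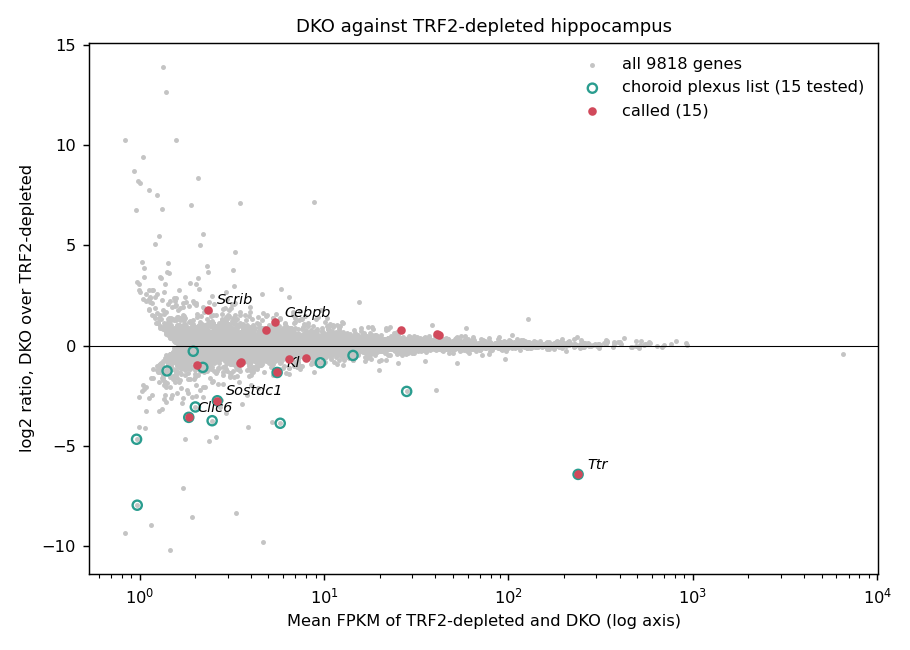
Log2 ratio of DKO over TRF2-depleted hippocampus against the mean FPKM of the 2 conditions (log axis) for 9818 genes, with the 15 called genes filled and the 15 tested choroid plexus genes ringed. Ratios scatter widely at low levels, and Ttr stands far below all other genes above 100 FPKM.

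Across all genes the median log2 ratio was 0.01. The central 95% of log2 ratios ran from -0.90 to 1.03, with 5137 genes higher and 4681 lower in DKO. The range narrowed with level, from -1.31 to 1.54 over 4328 genes with a mean under 5 FPKM to -0.26 to 0.40 over 1524 genes of 20 FPKM or more. A large ratio alone was seldom precise: of 477 genes at least 2-fold apart, 6 were called and 416 had a deposited p of 0.05 or more. Genes with several rows made up 43.6% of those 477 and 21.6% of all members, and how reads were divided among rows affects such values.

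The genes that had changed in TRF2-depleted against control were then followed into DKO. They are 18 genes chosen by that comparison, which shares the TRF2-depleted samples with the one described here. Genes of dentate granule neurons among them had DKO levels that ranged from that of TRF2-depleted to part of the way towards control. Stxbp6, a regulator of vesicle fusion, had 15.7 FPKM in control, 8.44 in TRF2-depleted and 8.79 in DKO hippocampus (the authors' deposited table gives q = 0.960 for DKO against TRF2-depleted). C1ql3, a secreted organiser of synapses, had 45.4, 31.0 and 29.0 FPKM, and its relative C1ql2 had 19.2, 11.4 and 12.7 FPKM, for which the authors' deposited table gives q = 0.909 and q = 0.886. The desmosomal gene Dsp had 3.27, 1.16 and 1.38 FPKM and was not tested between DKO and TRF2-depleted.

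Fam163b and the lactase gene Lct, both granule neuron markers, had intermediate DKO levels. Fam163b had 18.6, 8.87 and 13.02 FPKM in control, TRF2-depleted and DKO (log2 ratio of DKO over TRF2-depleted 0.55, where the authors' deposited table gives q = 0.0764). Lct had 4.66, 2.26 and 3.13 FPKM (log2 ratio 0.47, where the authors' deposited table gives q = 0.415). Over the whole list of granule neuron genes the summed level was 195 FPKM in control, 127 FPKM in TRF2-depleted and 146 FPKM in DKO hippocampus. Of 16 tested members 0 were called between DKO and TRF2-depleted, against 0.153% of all genes, and 3 had a deposited p under 0.05, against 5.08% of all genes. These 3 were higher in DKO, as were 300 of the 499 such genes in all, and the median log2 ratio was 0.15. Fam163b and Lct are among the 3. Both were called lower in TRF2-depleted against control, and the list was chosen with earlier results of these data known. The same TRF2-depleted values enter both comparisons, so this share is no independent evidence of a rise in DKO.

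Outside the granule neuron list, Myo1f, an unconventional myosin of myeloid cells, had 0.360, 5.75 and 6.76 FPKM in control, TRF2-depleted and DKO, Zic1 of thalamic and septal neurons 2.12, 4.51 and 4.69 FPKM, and the axon guidance gene Sema5a 10.03, 6.22 and 5.90 FPKM. In these 3 genes DKO was close to TRF2-depleted, and each had q = 0.0301 for DKO against control in the authors' deposited table. Prdx6, an antioxidant peroxidase, had 29.8, 11.9 and 22.8 FPKM, and Mier1 had 1.82, 5.83 and 2.04 FPKM, so that in both DKO lay nearer to control. Neither was called between DKO and TRF2-depleted (the authors' deposited table gives q = 0.405 and 0.886).

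**Figure D4:**
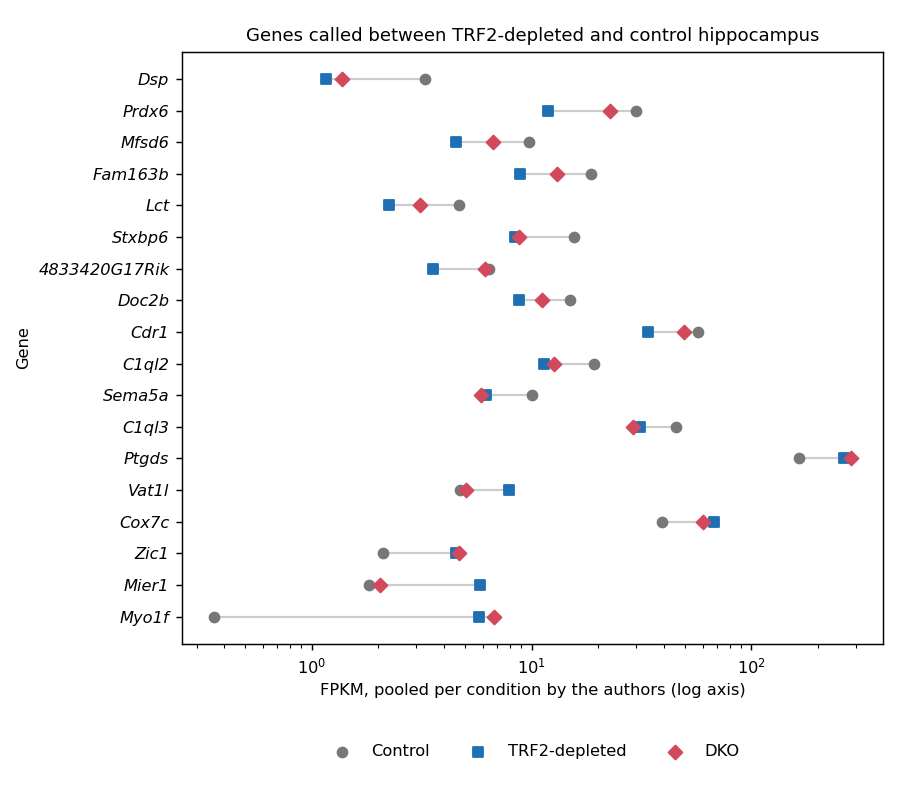
Level in FPKM (log axis) in control, TRF2-depleted and DKO hippocampus of the 18 genes called between TRF2-depleted and control. DKO lies beside TRF2-depleted for genes such as Stxbp6, Zic1 and Myo1f, and beside control for 4833420G17Rik, Vat1l and Mier1.

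Of 37 gene lists examined, choroid plexus was the 1 with a called member, and the 36 others had medians between -0.29 and 0.20. Few genes were called at all (0.153%), so 0 called members in a list does not show a lack of change. Among targets of p53, which halt the cell cycle or start apoptosis, 0 of 24 tested members were called. Of the 24, 16 were higher and 8 lower in DKO, where 52.3% of all genes were higher, and the median log2 ratio was 0.08. Bax, a pore-forming protein of apoptosis, had 7.31 FPKM in control, 4.25 in TRF2-depleted and 10.7 in DKO hippocampus (the authors' deposited table gives p = 0.0315 and q = 0.858). It was the 1 target of 24 with a p under 0.05, against 5.08% of all genes. The cell cycle inhibitor gene Cdkn1a (p21) had 2.58, 1.79 and 2.53 FPKM (the authors' deposited table gives p = 0.0664). In both genes the lowest of the 3 levels was that of TRF2-depleted hippocampus.

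The DNA damage signalling list had a median of -0.02. Of its 14 tested members 0 were called and 0 had a p under 0.05, against 0.153% and 5.08% of all genes. The repair endonuclease genes Ercc4 and Ercc1 had the smallest p there, Ercc4 with 2.03, 2.42 and 2.01 FPKM and Ercc1 with 6.55, 4.06 and 6.14 FPKM in control, TRF2-depleted and DKO. In both, DKO was close to control. The telomere and end-joining list had a median of 0.11 with 0 of 9 at a p under 0.05, and 0 of 4 tested shelterin genes reached it, against the same 5.08%. The break sensor gene Parp1 had 16.4, 15.2 and 17.9 FPKM, and Gar1, of the telomerase ribonucleoprotein, had 2.86, 4.38 and 3.19 FPKM. The shelterin gene Acd (TPP1) had 7.39, 6.75 and 7.81 FPKM and Tinf2 (TIN2) had 2.25, 2.35 and 2.70 FPKM in control, TRF2-depleted and DKO, and they had the smallest p of the 4. Among CDK inhibitors Cdkn1c (p57) had 1.32, 2.27 and 0.879 FPKM (log2 ratio -1.37, where the authors' deposited table gives p = 0.00095 and q = 0.260), highest in TRF2-depleted hippocampus. Of 19 proliferation genes 2 were expressed enough to be tested, Mcm6 and Pcna, with p = 0.469 and 0.991 in the authors' deposited table.

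Among neuronal lists the CA pyramidal and glutamatergic genes had the highest medians, 0.20 and 0.17, with 17 of 24 and 21 of 25 tested members higher in DKO against 52.3% of all genes. None was called in either list, where 0.153% of all genes were called. At a deposited p under 0.05 there were 4 of 24 CA genes, 3 higher and 1 lower, and 2 of 25 glutamatergic genes, both higher, against 5.08% of all genes. Camk2b, a subunit of the calcium-dependent kinase of synapses, had 36.6, 25.7 and 51.7 FPKM in control, TRF2-depleted and DKO (log2 ratio 1.01, where the authors' deposited table gives q = 0.365). The CA gene Cpne4 had 10.2, 11.7 and 6.85 FPKM (log2 ratio -0.77, where the authors' deposited table gives q = 0.483), the lowest level being that of DKO. The postsynaptic scaffold gene Shank3 had 21.2, 17.0 and 22.3 FPKM, and Pou3f1, a transcription factor gene of CA1, had 16.0, 15.6 and 19.3 FPKM. Newborn neuron genes had a median of 0.07 with 0 of 12 called and 1 at a p under 0.05, against 0.153% and 5.08% of all genes. That 1 gene was Calb2, a calcium-binding protein gene of immature granule neurons and of interneurons, with 9.82, 9.96 and 13.4 FPKM. Dpysl3, a regulator of axon growth, had 1.83, 1.66 and 4.33 FPKM in its main row but a log2 ratio of 0.01 over its 3 rows. Dcx itself was not tested and had 1.36, 1.43 and 1.10 FPKM summed over its 3 rows.

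Glial lists had small medians as well. Over all genes 47.7% were lower and 52.3% higher in DKO, 0.153% were called and 5.08% had a deposited p under 0.05. Oligodendrocyte and myelin genes were lower in DKO in 21 of 28 members (median -0.08), with 0 called and 3 at a p under 0.05, among them Enpp2, described above. Ugt8a, an enzyme of myelin lipid synthesis, had 11.6, 12.6 and 10.2 FPKM in control, TRF2-depleted and DKO (the authors' deposited table gives p = 0.0228 and q = 0.806). Microglia genes were higher in 17 of 23 (median 0.15), with 0 called and 2 at a p under 0.05, Tmem119 (5.20, 4.61 and 6.82 FPKM) and Cx3cr1 (4.92, 4.62 and 6.04 FPKM). Astrocyte genes had a median of 0.07 with 0 of 22 called and 2 at a p under 0.05. The intermediate filament gene Gfap had 60.5, 53.4 and 67.8 FPKM (the authors' deposited table gives q = 0.495). Ppp1r3c, a regulator of glycogen synthesis, had 12.8, 11.9 and 15.2 FPKM. Of 36 interferon-stimulated genes in the list only 6 were tested, so most of it is not covered. These 6 were all lower in DKO (median -0.29), with 0 called and 0 at a p under 0.05. Among them were the MHC light chain gene B2m with 41.6, 51.5 and 44.2 FPKM and Stat2, a transducer of interferon signals, with 0.720, 2.16 and 1.41 FPKM.

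Immediate early genes, switched on by neuronal activity, had a median of -0.05 with 0 of 35 called, against 0.153% of all genes. At a deposited p under 0.05 there were 6 of 35, against 5.08% of all genes, 3 higher and 3 lower. The matricellular gene Cyr61 had 0.954, 2.21 and 1.06 FPKM in control, TRF2-depleted and DKO (the authors' deposited table gives p = 0.0041 and q = 0.455). The synaptic pentraxin gene Nptx2 had 8.16, 7.72 and 10.2 FPKM. The median was 0.04 for nuclear genes of oxidative phosphorylation (0 of 73 called, 4 at a p under 0.05) and 0.07 for cytosolic ribosomal protein genes (0 of 76 called, 5 at a p under 0.05). The shares in the oxidative phosphorylation and ribosomal protein lists are near the 5.08% of all genes. All 9 members at a p under 0.05 were higher in DKO, as were 300 of the 499 such genes in all. Ndufb7, a complex I subunit, had 49.1, 48.0 and 67.7 FPKM (the authors' deposited table gives q = 0.263), and Rpl19 had 202, 201 and 270 FPKM (the authors' deposited table gives q = 0.359). Ndufa5, of complex I too, had 56.8, 62.3 and 79.7 FPKM, and Rpl29 had 101, 106 and 129 FPKM. In these 4 genes DKO was the highest of the 3 conditions.

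**Figure D5:**
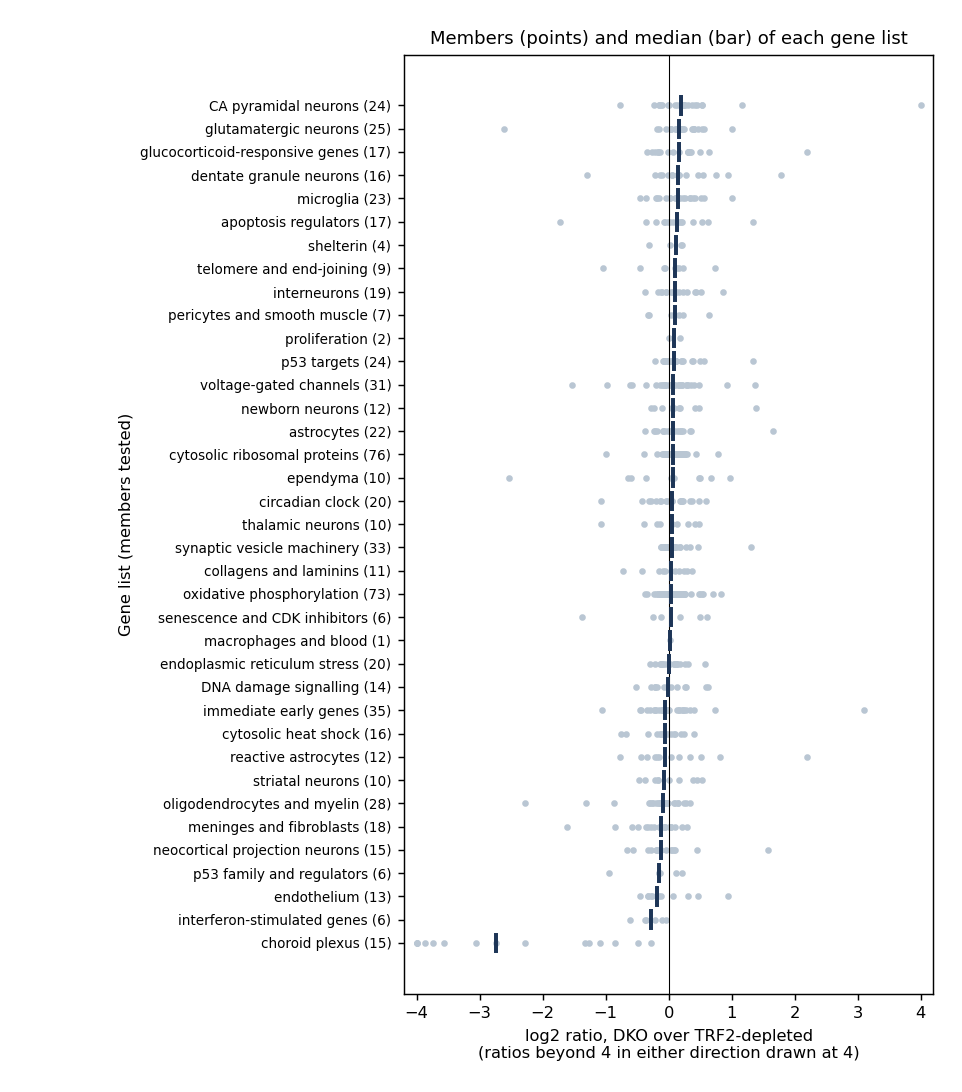
Log2 ratio of DKO over TRF2-depleted hippocampus for the tested members (points) of 37 gene lists, with the median of each as a bar; ratios beyond 4 are drawn at 4. The choroid plexus median of -2.75 lies apart from the 36 others.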

How the data were processed

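Total RNA of hippocampus was sequenced, with CASAVA 1.8, Cuffdiff, Cufflinks, TopHat2 and the build mm10 listed in the submitters' processing notes. The sources used here give no version of the last 3 tools, no settings and no annotation. Values are FPKM, pooled by the authors to 1 value per condition and coding-sequence row, per the file headers, beside a deposited p-value and q-value, which matches the Benjamini-Hochberg value computed from all 33101 rows tested in 3 comparisons to within 5.26e-07. Pooling hides the spread between samples, which may be technical. Of 14 samples, 1 whose labels name both tissues was placed in no group. The cortex table was not used here.

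Log2 ratios were recomputed from FPKM without a pseudocount in Python 3.11.15 (numpy 2.4.6, pandas 2.3.3, matplotlib 3.10.9), with code tested on simulated tables. Coordinates are the deposited loci counted from 1. A set of 25 date-like symbols was left as found. Members and the 37 lists were chosen with earlier results of these data known. Genes named were Terf2, shelterin and p53-family genes, Lig4, Atm and Trp53bp1, up to 15 called rises and 15 falls ranked after adding 0.1 FPKM, genes called in another comparison as well, and up to 4 called members of each list or the 2 with the smallest p. Of the genes named for lists, those of lists the text describes are given. Genes named beyond the rule, such as tissue markers, untested choroid plexus genes and the 18 genes called in TRF2-depleted against control, were chosen after their values were seen. Alternatives covered the q threshold, its adjustment, the minimum FPKM, a minimum fold, rows, the pseudocount and centring.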

Additional observations from a re-analysis of the deposited data

How the results depend on the processing

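At a q of 0.01 the count of called genes was 0, with 0 higher and 0 lower, since the smallest deposited q is 0.0301; 499 genes had an unadjusted deposited p under 0.05. With a minimum of 5 FPKM 9 genes were called, 4 of them lower. Without the choroid plexus list, an alternative chosen after seeing the data, 5 genes were called lower and 6 higher. Under the other settings (q of 0.1, an adjustment over this comparison alone, no minimum, a fold of 1.5, every row) 14 to 17 were called. The 15 genes were all kept except with the fold of 1.5, which kept 14. A q of 0.1 and every row can only add calls, and no tested row lay under the minimum, so these settings could not have removed any. The choroid plexus median was -2.58 with a pseudocount of 0.1 FPKM, -1.54 with 1 FPKM, -1.81 with a minimum of 5 FPKM and, chosen after seeing the data, -3.57 without members that another list holds. Of the 36 other list medians, 5 changed sign with a minimum of 5 FPKM: ependyma to -0.59 (1 member left), pericytes to -0.15, senescence to -0.12, striatal neurons to 0.08 and DNA damage to 0.03. Striatal neurons and endoplasmic reticulum stress changed sign with rows summed, and the latter also when centred. No called gene changed direction. No paired analysis was possible because the table holds 1 pooled value per condition. For the same reason no replicate could be left out.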
